A study of Mus musculus with 11 samples.

Results

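The liver endothelial genes described here are 10 genes, given as a list of symbols: Stab1, Stab2, Lyve1, Clec4g and Oit3, which in the adult mouse liver mark the sinusoidal endothelium, and Pecam1, Kdr, Cdh5, Vwf and Cd34, which mark endothelium more widely. All 10 were found among the 20893 rows of the expression table, and all 10 were among the 14240 genes with enough signal to be tested. Their expression was read in 11 whole livers of mice on a C57BL/6 background, 1 library per liver. Every mouse carried the ROSA26-rtTA-IRES-EGFP allele, which makes the doxycycline-dependent activator rtTA. The 4 control livers had no YAP transgene (WT) and received doxycycline food for 7 days. The other livers carried tetYAP and received doxycycline food for 3 days (4 livers) or 7 days (3 livers). Per the study's methods, YAP was a phosphorylation-site mutant and rtTA was released by Alb-CRE. This recombinase acts in cells with an active albumin promoter, which include hepatocytes and not endothelium. The labels do not list Alb-CRE, and ages are not given in the sources used here. No control had doxycycline for 3 days, so 3 days of YAP and a shorter time on doxycycline cannot be told apart. The p-values measure the spread between these livers.

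Liver sinusoids are lined by a specialised, fenestrated endothelium without a continuous basement membrane. Its cells clear macromolecules from blood through scavenger receptors (the stabilins Stab1 and Stab2) and carry lectins and hyaluronan receptors (Clec4g, Lyve1) that most other capillaries lack. Large vessels and ordinary capillaries share with them the junctional and receptor genes Pecam1, Cdh5 and Kdr, while Vwf and Cd34 are typical of endothelium with a continuous wall and are low in normal sinusoids. In injured or cancerous liver, sinusoids can lose sinusoidal genes and gain Cd34, a change called capillarization.

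Values are given as eRPKM, in which the reads of a gene are divided by the length of its exons and by library size, so levels can be compared between genes of different length. Libraries held 1250317 (control liver 4) to 5937585 (7-day liver 2) reads on genes, and the medians were 3150239 for controls, 3650053 at 3 days and 5353655 at 7 days. Spearman correlations between livers of a group ran from 0.922 to 0.986. The reads per kilobase on Alb, the gene of albumin, differed between the 11 libraries by 1.28-fold (1148 to 1471) while depth differed by 4.75-fold, so the eRPKM of Alb was highest in the shallowest library. How far that raised or lowered the eRPKM of the endothelial genes was not tested. By their Xist and Ddx3y reads, 2 of 4 controls, 2 of 4 livers at 3 days and 3 of 3 at 7 days were female. Of the 6 canonical YAP targets on a fixed list (Cyr61, Ctgf, Ankrd1, Amotl2, Axl and Ajuba), 6 rose at 7 days, beside 18.0% of all tested genes. At 3 days 0 passed the threshold, beside 0.0421% of all tested genes. Their 3-day log2 fold changes had a median of 1.36 and ran from Ankrd1 (-0.94) to Ajuba (2.25). Cyr61 (26.8 to 53.4 eRPKM) and Ajuba (15.5 to 44.2) were then above all controls (5.76 to 14.3 and 3.84 to 7.15), with a limma adjusted p of 0.0117 each.

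RefSeq promoter sequences (GRCm38.p6, 250 bases before to 50 after the start of transcription) were at hand for 5 of the 10 genes: Stab1, Stab2, Clec4g, Kdr and Cd34. 3 of them are shown for the genes on which the results below turn: Stab1, a sinusoidal gene that rose, Clec4g, a sinusoidal gene that fell from 3 to 7 days, and Cd34, a pan-endothelial gene that rose. Capitals mark AGGAAG or its reverse complement, a core letter string of ETS factors, which act in endothelial cells, and the letters run 5′ to 3′ on the strand of the gene. Stab1 lies at chr14:31168592-31168891 (minus strand), Clec4g at chr8:3720602-3720901 (minus strand) and Cd34 at chr1:194938571-194938870 (plus strand).
Stab1: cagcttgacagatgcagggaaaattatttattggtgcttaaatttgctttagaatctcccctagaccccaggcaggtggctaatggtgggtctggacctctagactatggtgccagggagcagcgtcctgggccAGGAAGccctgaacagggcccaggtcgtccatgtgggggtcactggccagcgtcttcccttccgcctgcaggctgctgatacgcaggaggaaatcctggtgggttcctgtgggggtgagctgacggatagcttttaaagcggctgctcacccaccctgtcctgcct
Clec4g: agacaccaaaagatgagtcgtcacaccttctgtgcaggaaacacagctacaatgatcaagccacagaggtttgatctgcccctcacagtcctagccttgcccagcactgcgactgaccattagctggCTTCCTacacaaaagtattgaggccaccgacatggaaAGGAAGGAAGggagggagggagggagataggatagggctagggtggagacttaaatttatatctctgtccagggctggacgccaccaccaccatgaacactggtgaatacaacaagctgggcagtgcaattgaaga
Cd34: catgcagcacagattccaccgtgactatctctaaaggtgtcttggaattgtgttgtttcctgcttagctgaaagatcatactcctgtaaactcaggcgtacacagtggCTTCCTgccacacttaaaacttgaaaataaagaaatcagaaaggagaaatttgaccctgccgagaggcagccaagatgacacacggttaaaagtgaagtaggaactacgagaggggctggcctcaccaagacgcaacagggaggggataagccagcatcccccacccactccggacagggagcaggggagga
AGGAAG was found 1 time in the Stab1, Stab2 and Cd34 windows, 3 times in that of Clec4g (2 of them sharing letters) and 0 times in that of Kdr. Of all 32851 RefSeq promoters of this length, 35.4% held it on either strand. GGAATG, the letter string of TEAD factors through which YAP acts, was in 0 of the 5 windows and in 14.7% of all promoters. CACCC, a letter string of KLF factors, was in all 5 windows and in 57.5% of all promoters. The matches describe letters only.

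In control livers, Clec4g, a C-type lectin of sinusoidal cells, stood above the other 9 genes at a mean of 65.3 eRPKM (SD 16.2, n = 4), and its lowest control liver was above the highest control value of Oit3, the next gene in the order. Oit3 (22.3), Stab2 (20.7), Stab1 (18.9), Kdr (18.4), Cdh5 (17.9), Pecam1 (14.5) and Lyve1 (11.4 mean eRPKM) followed, and each of these overlapped its neighbour in the order. Cd34 (2.23) and Vwf (1.34) were the lowest and overlapped each other, with Cd34 below every control value of Lyve1. At 7 days the order had changed. Cdh5 (50.1), Stab1 (48.4), Lyve1 (43.6) and Clec4g (37.6 mean eRPKM) led with overlapping values, and Vwf (0.936) was still the lowest. Clec4g thus made up 26.8 to 39.3% of the summed eRPKM of the 10 genes in control livers, 30.7 to 41.4% at 3 days and 10.3 to 15.0% at 7 days. The share of Cdh5, the adherens junction cadherin of endothelium, was 7.90 to 10.1% in controls and 15.5 to 19.0% at 7 days, with the 3-day livers overlapping the controls. In controls the sum itself was 140 to 249.9 eRPKM, after 3 days 169 to 307, and after 7 days 262 to 302.

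**Figure D1:**
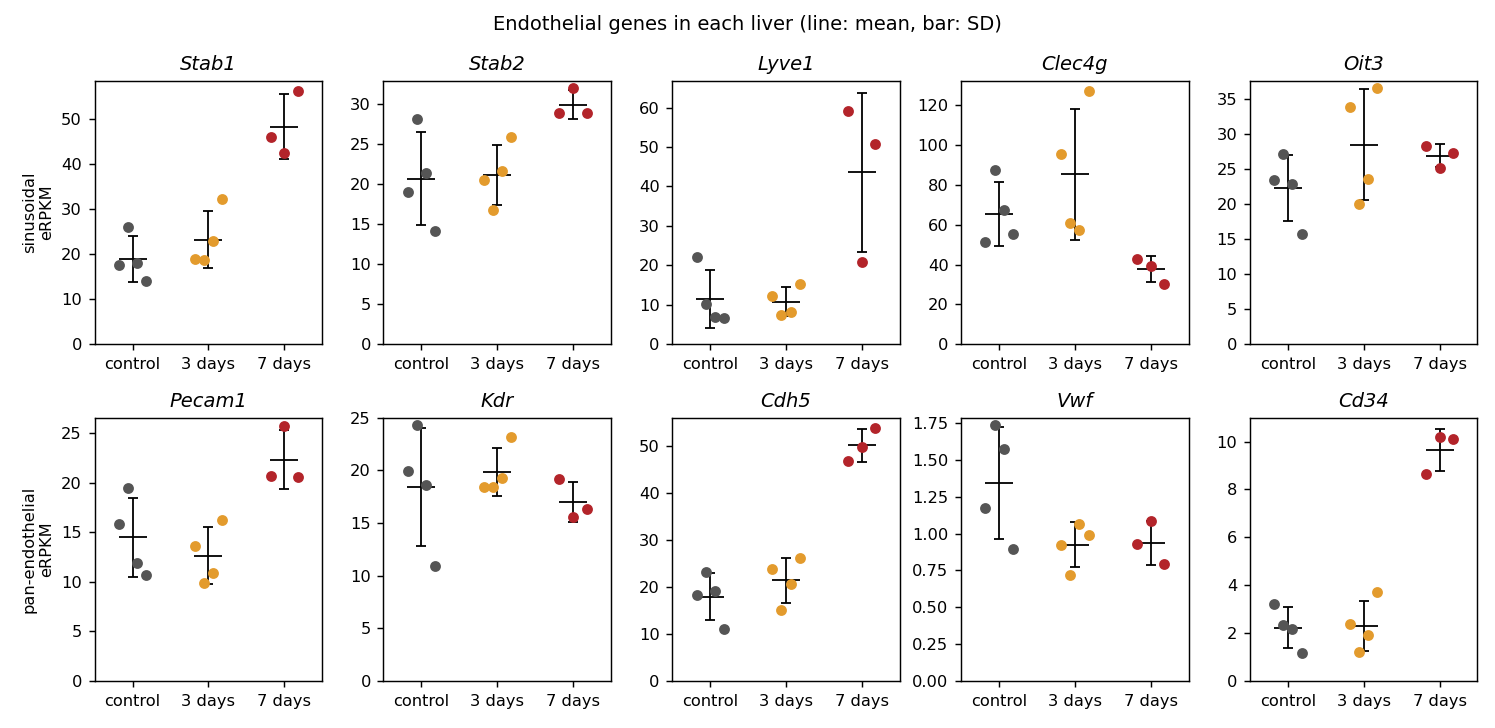
eRPKM (vertical axes, each from 0) of the 5 sinusoidal genes (top) and the 5 pan-endothelial genes (bottom) in every liver, with 1 point per liver, the group mean as a line and the SD as a bar (control n = 4, 3 days n = 4, 7 days n = 3). At 7 days Stab1, Cdh5 and Cd34 lie above every other liver and Clec4g lies below, while Oit3, Kdr and Vwf overlap the controls.

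**Figure D2:**
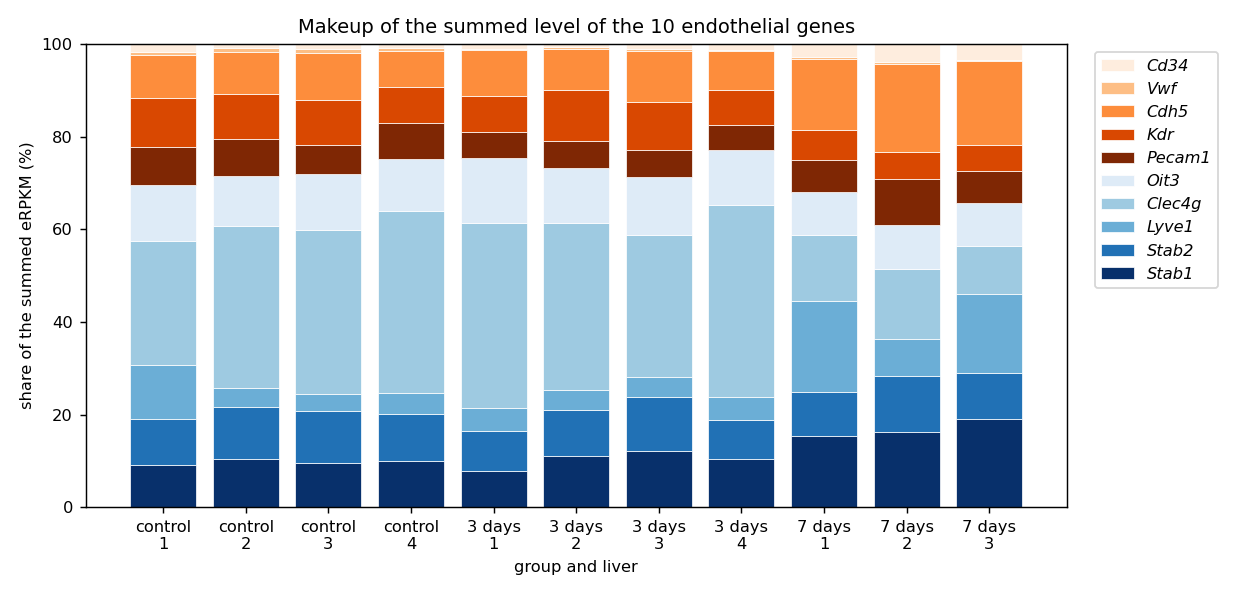
Share of each gene (vertical axis, percent) in the summed eRPKM of the 10 endothelial genes, with 1 bar per liver, sinusoidal genes in blue and pan-endothelial genes in orange. Clec4g takes 26.8 to 41.4% of the sum in control and 3-day livers and 10.3 to 15.0% at 7 days.

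After 7 days of YAP induction, 4 of the 10 genes rose against control, 0 fell and 6 did not pass the test. The 4 were evenly split between the classes: Stab1 and Lyve1 of the 5 sinusoidal genes, Cdh5 and Cd34 of the 5 pan-endothelial genes. A call needed a limma adjusted p below 0.01 together with a log2 change of more than 0.5 either way, a threshold that 23.7% of all tested genes passed in either direction. In these whole-liver samples, fewer cells of a type and less RNA per cell cannot be told apart. Groups did not overlap for 6 of the 10 genes (Stab1, Stab2, Pecam1, Cdh5 and Cd34 above all controls, Clec4g below), against 50.0% of all tested genes. The median log2 fold change was 0.56 over the sinusoidal genes and 0.64 over the pan-endothelial genes, beside 0.26 over all tested genes. That shift of all genes depended on the scaling: it was 0.03 with median-ratio size factors and -0.08 after quantile normalization. With these scalings 3 and 5 of the 10 genes were called, beside 22.5% and 25.8% of all tested genes. With log2 depth as a covariate 1 of the 10, Cdh5, was called, beside 11.8% of all tested genes, and with log2 Xist as a covariate 4 were, beside 19.0%.

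**Figure D3:**
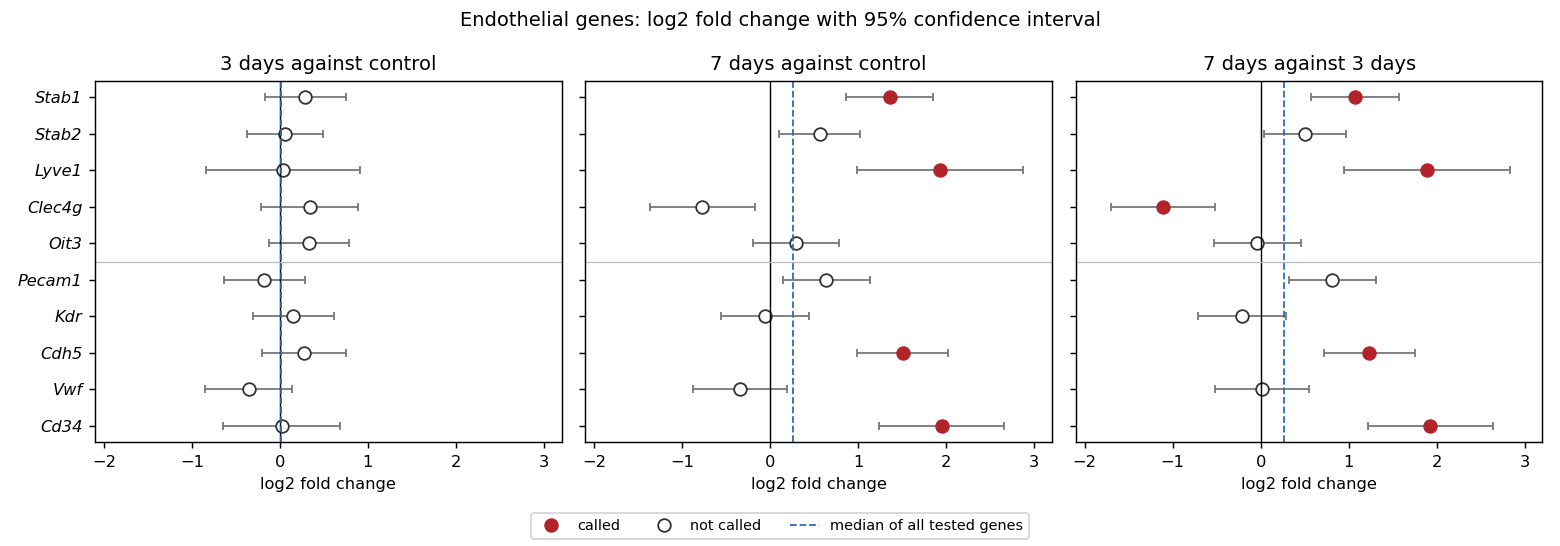
log2 fold change (horizontal axis) of each gene in the 3 comparisons, with 95% confidence intervals from the limma fit. Filled points passed the threshold, the solid line is 0 and the dashed line is the median of all tested genes. No gene passed at 3 days, 4 passed at 7 days against control, and 5 passed at 7 days against 3 days, of which Clec4g was lower. Of all tested genes, 0.0421%, 23.7% and 19.3% passed in the same order.

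Stab1, or stabilin-1, is a scavenger receptor of sinusoidal endothelium that tissue macrophages also make (mm9 chromosome 14, 31952199 to 31981827, minus strand). In control livers 1 to 4 it read 17.6, 26.0, 18.1 and 14.0 eRPKM, after 3 days 18.9, 18.8, 23.0 and 32.2, and after 7 days 46.1, 42.6 and 56.4. All 3 livers at 7 days were above every liver of both other groups, and the 3-day livers overlapped the controls. The mean at 7 days was 2.55 times that of controls, and the log2 fold change was 1.36 (SE 0.23; limma adjusted p = 0.00061). Of its exon bases, 109 lie under exons of Nt5dc2 on the other strand. Reads were aligned without strand, so those of the 2 genes cannot be told apart there, and Nt5dc2 stood at 5.15 to 9.35 eRPKM in controls and 12.3 to 15.3 at 7 days.

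Stab2, the partner receptor that clears hyaluronan, moved less (chromosome 10, 86303943 to 86470770, minus strand). Its controls had 19.1, 28.1, 21.5 and 14.2 eRPKM, its 3-day livers 20.5, 16.8, 21.7 and 25.9, and its 7-day livers 28.9, 32.0 and 28.9. The 7-day livers were narrowly above all others, and the log2 fold change of 0.56 (SE 0.21) did not pass (limma adjusted p = 0.054). It was 0.06 when each library was scaled to the mean log2 level of 22 further pan-endothelial genes, an alternative chosen after seeing the data. A gene model on the other strand, Gm16268, shares exon bases with Stab2 in the annotation and is no row of the table as given here.

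Lyve1 encodes a hyaluronan receptor of sinusoidal and lymphatic endothelium that some tissue macrophages carry too (chromosome 7, 117994121 to 118006467, minus strand). Controls had 22.1, 10.3, 6.80 and 6.55 eRPKM, 3-day livers 12.3, 7.28, 8.29 and 15.3, and 7-day livers 59.2, 20.8 and 50.7. 7-day liver 2, at 20.8, fell inside the control range because of control liver 1, and the other 7-day livers were above all controls. Its log2 fold change of 1.93 (SE 0.44; limma adjusted p = 0.0040) was as large as that of Cd34 but rested on more variable livers. The call was lost without control liver 3 (limma adjusted p = 0.0125), control liver 4 (0.0139), 7-day liver 1 (0.0253) or 7-day liver 3 (0.0234), with log2 fold changes of 1.75, 1.73, 1.64 and 1.755. It was also lost with median-ratio size factors (limma adjusted p = 0.0116), when scaled to the further pan-endothelial genes (0.0122) and with log2 depth as a covariate (0.0686).

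Clec4g, the sinusoidal lectin with the highest control level, was lower at 7 days than at 3 days (chromosome 8, 3707064 to 3720651, minus strand). Control livers had 51.4, 87.4, 67.2 and 55.3 eRPKM, 3-day livers 95.8, 60.8, 57.6 and 127, and 7-day livers 43.0, 39.5 and 30.5. Every 7-day liver was below every liver of the other groups. Against control the log2 fold change was -0.77 (SE 0.27; limma adjusted p = 0.041), short of the threshold, and against 3 days it was -1.11 (SE 0.27; adjusted p = 0.0081). Scaled to the further pan-endothelial genes, it also passed against control (-1.28, limma adjusted p = 0.0013). In the annotation its exons overlap those of Gm9814 on the same strand and Gm16553 on the other, and neither is a row of the table as given here.

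Oit3, a secreted zona pellucida domain protein of sinusoidal endothelium, showed no detectable change (chromosome 10, 58885706 to 58904526, minus strand). Control livers ran from 15.7 to 27.1 eRPKM, 3-day livers from 19.99 to 36.5, and 7-day livers from 25.1 to 28.3. All 3 groups overlapped, and the 95% confidence interval of the 7-day log2 fold change ran from -0.20 to 0.78.

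Cdh5 (VE-cadherin) was called at 7 days against control in all 26 alternative fits, and against 3 days in 23 of them (chromosome 8, 106625525 to 106668402, plus strand). Controls had 18.2, 23.1, 19.2 and 11.1 eRPKM, 3-day livers 23.7, 15.0, 20.7 and 26.0, and 7-day livers 46.7, 49.8 and 53.8. The 7-day livers lay far above both other groups, which overlapped each other. The mean was 2.80 times that of controls, with a log2 fold change of 1.50 (SE 0.24; limma adjusted p = 0.00038). Against control it also passed with log2 depth as a covariate, with a log2 fold change of 0.997. Against 3 days the call was lost with depth as a covariate (limma adjusted p = 0.0118) and without 7-day liver 3 (0.01225).

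Cd34, a sialomucin of continuous capillaries that blood progenitors and some stromal cells also carry, rose from a low level (chromosome 1, 196765015 to 196787486, plus strand). Control livers had 3.23, 2.35, 2.15 and 1.18 eRPKM, 3-day livers 2.36, 1.22, 1.91 and 3.72, and 7-day livers 8.64, 10.2 and 10.1. All 7-day livers were above all others, and the log2 fold change was 1.95 (SE 0.33; limma adjusted p = 0.00060). These values came from few reads, 4 to 37 per liver in the control and 3-day groups and 125 to 164 at 7 days. A further gene, Gm16897, shares 148 exon bases with Cd34 on the other strand and was at 0 to 0.920 eRPKM in controls and 0.786 to 1.39 at 7 days.

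Pecam1 (CD31), an adhesion molecule of endothelial junctions that platelets and leukocytes share, had control values of 10.7 to 19.4 eRPKM, against 9.88 to 16.2 after 3 days and 20.5 to 25.7 after 7 days (chromosome 11, 106515531 to 106611942, minus strand). The 7-day livers were above all others, but the log2 fold change of 0.64 (SE 0.23) did not pass (limma adjusted p = 0.044). Kdr, the main VEGF receptor, overlapped in all groups, with control livers at 10.9 to 24.3 eRPKM, 3-day livers at 18.4 to 23.2 and 7-day livers at 15.6 to 19.2 (chromosome 5, 76328852 to 76374483, minus strand). Its 7-day log2 fold change was -0.06, with a 95% confidence interval from -0.56 to 0.43. Vwf, the carrier of coagulation factor VIII and a gene of large-vessel endothelium, was low throughout, from 0.898 to 1.74 eRPKM in the control group, 0.716 to 1.07 in the 3-day group and 0.793 to 1.09 in the 7-day group (chromosome 6, 125496792 to 125636697, plus strand). Its 7-day log2 fold change of -0.34 (SE 0.25) did not pass, although with quantile normalization it did (-0.80, limma adjusted p = 0.0067). So of the pair of genes typical of continuous endothelium, Cd34 rose and Vwf did not pass the test.

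After 3 days of induction, 0 of the 10 genes were called, where 0.0421% of all tested genes were. An unadjusted limma p under 0.05 was found for 0 of the 10 and for 12.1% of all tested genes, and limma-voom on recovered reads also called 0. The log2 fold changes ran from -0.36 (Vwf) to 0.34 (Clec4g), and 0 of the 10 had groups that did not overlap, against 5.64% of all tested genes. The confidence intervals were wide: that of Lyve1 ran from -0.84 to 0.91 and that of Cd34 from -0.64 to 0.68.

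The step from 3 to 7 days was tested directly, and 5 of the 10 genes were called (Stab1, Lyve1, Cdh5 and Cd34 higher, Clec4g lower) beside 19.3% of all tested genes. Log2 differences were 1.07 for Stab1, 1.89 for Lyve1, 1.24 for Cdh5, 1.93 for Cd34 and -1.11 for Clec4g. Pecam1 stood 0.81 higher at 7 days and did not pass (limma adjusted p = 0.016). This comparison leaned on single livers: leaving one out gave 1 to 5 calls, with 1 (Cd34) left without 7-day liver 3, 2 without 7-day liver 1, and 3 without 7-day liver 2, 3-day liver 1 or 3-day liver 2. In those 5 fits the share of all tested genes called fell too, to 9.91%, 11.4%, 10.5%, 13.7% and 15.3%. The range of adjusted p over the 26 alternatives was 0.00054 to 0.045 for Clec4g, which was called in 14 of them, and 9.7e-05 to 0.0060 for Cd34, which was called in 26.

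To compare the classes within a liver, the mean log2(eRPKM + 0.5) of the 5 pan-endothelial genes was subtracted from that of the 5 sinusoidal genes. This difference was 1.60, 1.61, 1.50 and 1.72 in control livers 1 to 4, 1.87, 1.80, 1.69 and 1.98 at 3 days, and 1.73, 1.28 and 1.63 at 7 days. The groups overlapped throughout, except that 3 of 4 livers at 3 days lay above all controls. At 7 days the mean differed from that of controls by -0.06, and the sign turned with the summary: with the median over genes in place of the mean, the difference was 0.48, and without 7-day liver 2 it was 0.07.

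Single pairs of genes were compared as ratios. Of the 45 ratios between 2 of the 10 genes, 32 had all 7-day livers outside the control range: 6 of 10 among sinusoidal genes, 8 of 10 among pan-endothelial genes and 18 of 25 between the classes. The share over all pairs of tested genes was 50.6%. At 3 days 6 of the 45 ratios were outside the control range, beside 7.15% of all pairs. They were the ratios of Stab1, Stab2, Oit3, Kdr and Cdh5 to Vwf, and that of Oit3 to Pecam1. Vwf had 16 to 136 reads per liver, and ratios that share a gene are not separate observations. The share over all pairs was computed on eRPKM + 0.5, a scale on which the 10 genes gave the same counts. A ratio within a library does not depend on the scaling of that library. The Stab1 to Stab2 ratio ran from 0.843 to 0.984 in control livers, from 0.920 to 1.25 after 3 days and from 1.33 to 1.95 after 7 days. Stab1 to Clec4g went from 0.253 to 0.343 in controls to 1.07 to 1.85 at 7 days. Kdr was at 0.967 to 1.10 times Cdh5 in controls and 0.303 to 0.410 times at 7 days, and Oit3 at 1.18 to 1.42 and 0.504 to 0.605 times Cdh5. Clec4g to Cdh5 fell from 2.83 to 4.98 in controls and 2.78 to 4.89 at 3 days to 0.566 to 0.920 at 7 days. These 5 ratios were picked for display after their values were seen, and all show unequal change of the 2 genes.

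**Figure D4:**
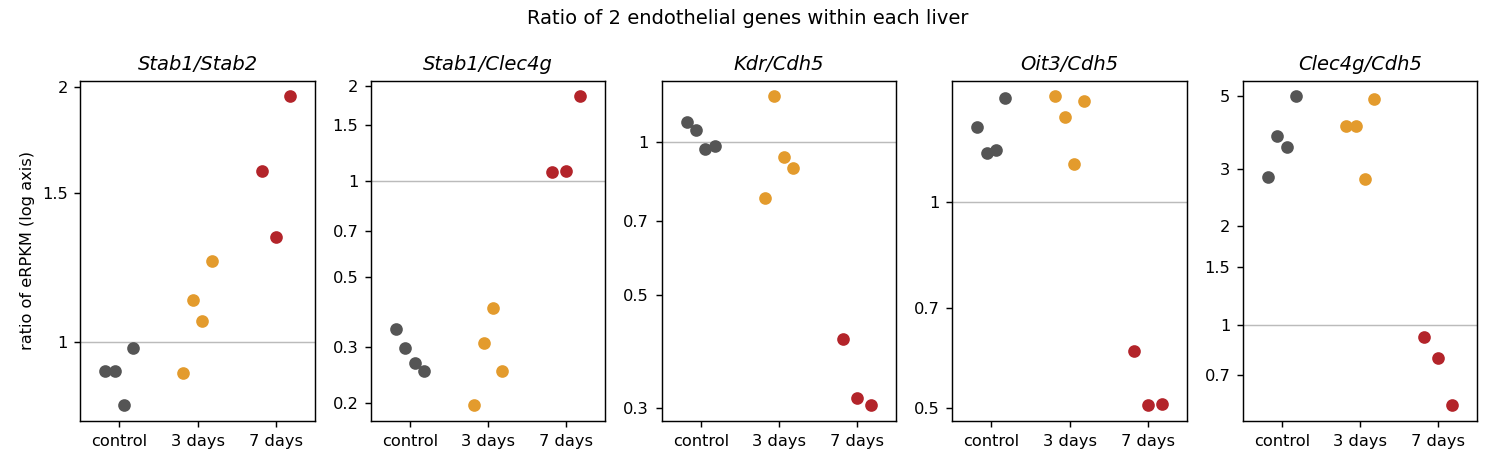
Ratio of the eRPKM of 2 endothelial genes within each liver (vertical axes, log scale), with 1 point per liver and a grey line at 1 where in range. In each of the 5 ratios the 3 livers at 7 days lie outside the range of the 4 controls, as with Clec4g to Cdh5 at 0.566 to 0.920 against 2.83 to 4.98.

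Within a group, single livers were high or low in most of the 10 genes. Control liver 4, the shallowest library, had the lowest value of 9 of the 10 genes (55.7% of all tested genes were lowest there), and control liver 2 the highest of 8 (42.3%). Among the 3-day livers, liver 4 was highest in 9 of the 10 genes, while 23.2% of all tested genes were highest there, and liver 2 was lowest in 8 (17.5%). Over the 11 livers, which share groups and depth, the median Pearson r of log2(eRPKM + 0.5) was 0.48 over the 10 pairs of sinusoidal genes, 0.19 over the 10 pairs of pan-endothelial genes and 0.50 over the 25 pairs between classes. The highest was that of Cdh5 and Cd34 (0.96), followed by Stab1 and Cdh5 (0.95), and the lowest that of Clec4g and Cd34 (-0.54). Over the 8 control and 3-day livers alone the medians were 0.71, 0.65 and 0.64, with Clec4g and Cd34 at 0.55, Oit3 and Cdh5 highest (0.95) and Lyve1 and Vwf lowest (0.059).

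Among 12407 genes outside all lists, those most like the mean profile of the sinusoidal genes over the 11 livers were C1qtnf1 (r = 0.97), Dcbld2 (0.97), Gpihbp1 (0.94), Mgst3 (0.93) and Nynrin (0.93). C1qtnf1, with the highest r, had a mean of 11.1 eRPKM in controls and 15.0 at 7 days. Gpihbp1 anchors lipoprotein lipase on capillary endothelium, and it had a mean of 28.6 eRPKM in controls and 43.5 at 7 days. These r are the highest of a search over all 12407 genes in livers that share groups and depth. How high r runs in such a search was not tested. For the pan-endothelial genes they were Nupr1 (0.95), Omg (0.95), 2700046G09Rik (0.94), Chkb (0.94) and Sin3a (0.94).

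Other endothelial genes on fixed lists were read at 7 days against control. Over all tested genes 18.0% rose and 5.77% fell. Of 18 further sinusoidal genes, 4 rose, 1 fell and 13 did not pass, a share of calls near the 23.7% of all tested genes, with a median log2 fold change of -0.02. Among these 5, the largest changes were those of Clec1b (1.61), a lectin that Kupffer cells also carry, F8 (-1.57), coagulation factor VIII, which the liver makes in its endothelium, Fcna (1.51), ficolin A, which macrophages also make, and Maf (0.91), a transcription factor of sinusoidal cells and macrophages. F8 fell from 22.2 to 30.7 eRPKM in controls to 6.96 to 10.6 at 7 days. Dnase1l3 (-0.74), Mrc1 (1.01), the mannose receptor, and Cd36 (1.15), a fatty acid and scavenger receptor, did not pass. These 3 are named after their values were seen.

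Of 22 further pan-endothelial genes, 5 rose, 1 fell and 16 did not pass, again near the share of all tested genes (23.7%), with a median of 0.45. Cd93 (2.12), Rasip1 (1.48), Cldn5 (1.45) and Nos3 (1.4) had the largest changes of those called, and Cldn5, the tight junction claudin of endothelium, went from 4.93 to 8.22 eRPKM in controls to 18.8 to 20.7 at 7 days. Ptprb (-0.98), the endothelial phosphatase that acts on Tek and Cdh5, was the 1 that fell, and it is named after its values were seen. Icam2 (1.39) also rose. Eng, Tek, Robo4 and Flt1 had log2 fold changes of 0.15, -0.29, -0.01 and 0.14 and did not pass. They too are named after their values were seen, and other markers of the list differed from them. The uncalled genes ran from Calcrl (-0.51) to Ramp2 (0.94), with Tie1 at 0.59 and Esam at 0.46.

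Of 15 endothelial transcription factors, 4 rose, where 18.0% of all tested genes did: the flow-responsive Klf2 (2.28) and Klf4 (1.80) and the ETS factors Fli1 (1.70) and Ets2 (0.93). Klf2 stood at 4.27 to 11.2 eRPKM in control livers, at 7.22 to 8.42 after 3 days and at 29.5 to 31.6 after 7 days. Fli1, which leukocytes also carry, went from 5.03 to 6.17 in controls to 18.0 to 21.2. Of 12 genes of the VEGF and angiopoietin axis, 1 rose (Flt4, the VEGFC receptor, 0.83) and 1 fell (Angptl2, -0.996), and the ligand Vegfa differed by less than the spread between livers (32.9 to 60.0 eRPKM in controls and 44.6 to 46.2 at 7 days). Of 9 genes of endothelial Wnt, BMP and growth signals to hepatocytes, 1 passed, the BMP target Id1 (2.92), which many cell types use, while the other 8 did not, from Rspo3 (-0.93), an amplifier of Wnt signals, through Hgf (-0.24), Bmp2 (-0.11) and Wnt2 (-0.04) to Wnt9b (0.57). Rspo3 stood at 6.15 to 10.97 eRPKM in controls and 3.85 to 4.22 at 7 days, without overlap (limma adjusted p = 0.023).

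Of 13 tip cell and angiogenesis genes, 7 rose and 0 fell, beside 18.0% and 5.77% of all tested genes, with a median of 1.15. Unc5b (3.09), Nid2 (2.27), Pdgfb (2.25) and Cxcr4 (2.22) rose most, and Unc5b, a netrin receptor of sprouting endothelium, went from 1.31 to 2.11 eRPKM in controls to 17.3 to 18.3 at 7 days. Dll4 (-0.17) and Esm1 (-0.88), the tip cell genes most specific to endothelium, did not pass, and Nid2 and Cxcr4 are also made by stromal cells and leukocytes. Esm1 was low and uneven, at 0 to 10.2 eRPKM in controls (mean 2.71, SD 4.99), 0 to 1.04 after 3 days and 0.0861 to 0.388 after 7 days. Of 8 leukocyte adhesion genes, 4 rose (Cd44 2.24, Selplg 2.03, Icam1 1.90 and Vcam1 1.56) and Selp, the P-selectin of endothelium and platelets, fell by 1.76. Cd44 and Selplg are leukocyte genes as well. Of 5 lymphatic genes, Flt4 rose, and Reln fell by 1.22 on the log2 scale. Prox1, which hepatocytes make too, stood at 42.9 to 56.5 eRPKM in controls and 42.8 to 48.5 at 7 days. None of these lists had a call at 3 days in the limma fit.

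**Figure D5:**
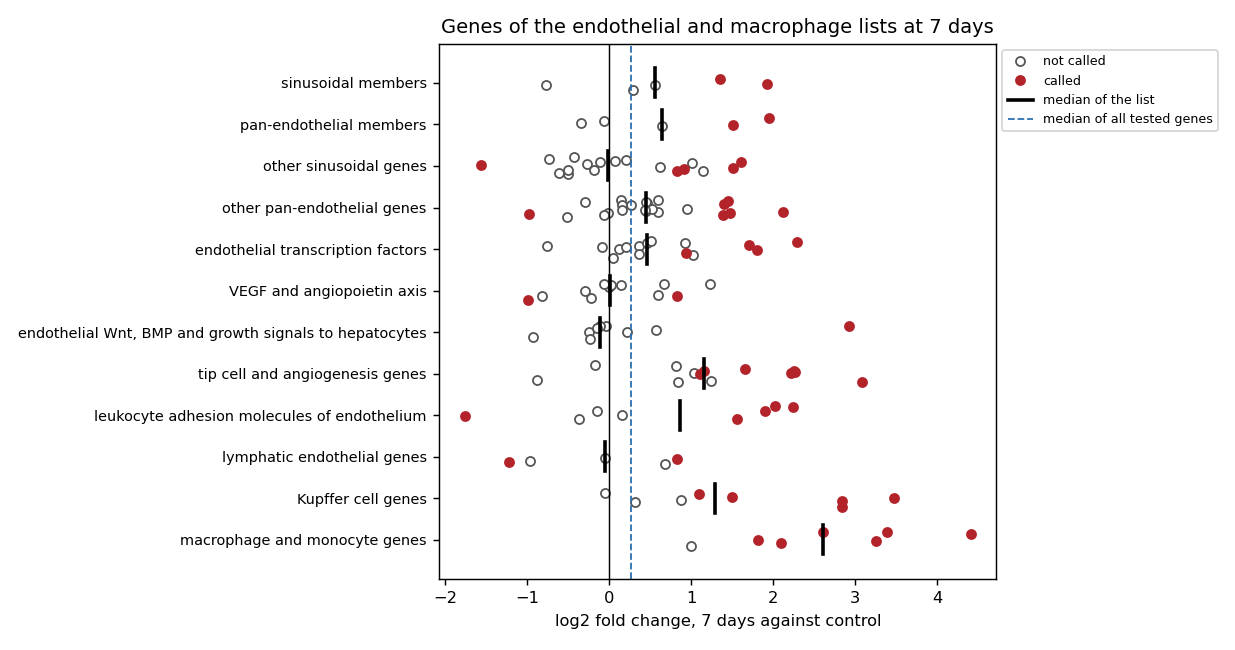
log2 fold change at 7 days against control (horizontal axis) of each tested gene, by list, with filled points for genes past the threshold, a black bar for the median of the list and a dashed line for the median of all tested genes. Each endothelial list holds genes that passed and genes that did not, and of the 12 lists plotted the Kupffer cell list (1.29) and the macrophage list (2.61) have the highest medians.

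Markers of other liver cells changed in the same livers, in which 18.0% of all tested genes rose at 7 days and 5.77% fell. Of 8 Kupffer cell genes, 5 rose at 7 days and 0 fell (median 1.29), and their summed level was 354 to 449 eRPKM in control livers, 320 to 486 after 3 days and 827 to 840 after 7 days. Of 7 macrophage and monocyte genes, 6 rose (median 2.61), with a summed level of 89.7 to 166, 101 to 198 and 421 to 474. The most abundant were Cd5l (log2 fold change 1.09), Clec4f (0.87, not called) and Vsig4 (1.49) of the first list, and Lyz2 (0.99, not called), Csf1r (1.81) and Cd68 (2.61) of the second, and no marker of either list was at 0 in all livers. The part of these cells in the rises of Stab1 and Lyve1, and of Clec1b, Fcna, Maf, Mrc1, Cd93 and Fli1, was not tested. The same holds for every other gene of the endothelial lists, Unc5b, Icam1, Vcam1 and Klf4 among them.

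Of 8 hepatocyte genes, 3 fell at 7 days, where 5.77% of all tested genes fell and 18.0% rose. Alb (-0.88), Apoa1 (-0.76) and Hpx (-0.85) did not pass. The summed level of the 8 was 1668 to 5097 eRPKM in controls and 1248 to 1398 at 7 days. Reads per kilobase ran from 1148 to 1471 on Alb and from 1062 to 1473 on Apoa1 over all libraries, while depth differed by 4.75-fold. The part of depth in these lower eRPKM values was not tested. Of 8 stellate cell and fibroblast genes, Rgs5 fell (-0.98) while Dcn (-0.68) and Lrat (-1.18) did not pass. Beside Cd34, the 2 tested genes of a list drawn up for blood progenitors were Kit (0.21, not called) and Prom1 (2.92, called). The 4 further genes of that list were too low to test, and which liver cells made Prom1 was not tested. Beside Pecam1 and Selp, the platelet genes Gp1ba (-0.51), Ppbp (-0.34) and Itga2b (0.04) did not pass and Pf4 rose (3.51). 0 of 8 T and B cell genes and 0 of 5 mesothelial genes were called, beside 23.7% of all tested genes. Near that share, 1 of 5 biliary genes was called, Krt7 (1.51), while Spp1 (0.74), Sox9 (0.95) and Krt19 (1.57) were not. All 8 proliferation genes, Mki67 among them (3.67), rose, beside 18.0% of all tested genes. The part of each in the endothelial values was not tested.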

How the data were processed

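RNA was read from 11 mouse livers, 1 library each (control n = 4, 3 days n = 4, 7 days n = 3). The authors aligned masked read pairs to mm9 with TopHat2 2.0.8 without regard to strand, counted them with featureCounts 1.4.5-p1 and deposited eRPKM, an RPKM over exons. The annotation and the per-million total are not given in the sources used here. Positions and exon overlaps are from an mm9 annotation of GENCODE. In addition, 3 columns that hold the authors' own DESeq2 comparison (mean count, log2 fold change and adjusted p) were not used.

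The table has 20893 genes, and 4 rows with symbols turned into dates were left out. Genes with at least 0.5 eRPKM in 3 libraries were tested on log2(eRPKM + 0.5) with limma 3.58.1 (R 4.3.3, empirical Bayes with trend, all 3 groups in one fit, Benjamini-Hochberg adjustment over all 14240 genes). Fold changes on this scale understate those of low genes. A call needed an adjusted p under 0.01 and a log2 change over 0.5. A self-test on simulated reads with known changes was run first. Whole reads per gene were recovered from the steps of the eRPKM: 100% of 177509 values above 0 lay within 0.1 of a whole read, and they gave the depths and a limma-voom fit as an alternative. Reads were not deduplicated by molecular identifiers.

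The 10 genes and all lists were chosen with earlier results of these data known. Besides the 10, the text names up to 4 called genes with the largest change per endothelial list, up to 3 genes of highest mean per list of other cells, and, per class, the 5 genes outside all lists (mean of at least 1 eRPKM) with the highest Pearson r to the mean z-scored profile. Further names were chosen after their values were seen. Listed genes that were not analysed here are Eltd1, Gpr116, Figf, Ccl21a and Emr1. Alternatives were other pseudocounts, filters, scalings, covariates, fits and thresholds and leaving out each liver. Ratios of genes and the class difference were compared by overlap of groups, without a test.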

Additional observations from a re-analysis of the deposited data

Results flagged for a closer look

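The effects at 3 days and at 7 days share the control livers, and their difference was tested directly as 7 days against 3 days in the limma fit. It passed the threshold for 5 of the 10 genes, beside 19.3% of all tested genes. The log2 difference was 1.07 for Stab1 (limma adjusted p = 0.0038), 1.89 for Lyve1 (0.0056), 1.24 for Cdh5 (0.0019), 1.93 for Cd34 (0.00083) and -1.11 for Clec4g (0.0081). For Stab1, Cdh5 and Cd34 all 3 livers at 7 days were above all 4 livers at 3 days, for Clec4g all 3 were below, and for Lyve1 all 3 were above. In a search for single livers far from the rest, 22 sets of 4 values (the 10 genes and the class difference in the control and 3-day groups) were examined with Dixon's criterion at its 95% level and 0 stood out, where chance gives about 1 in 20.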

How the results depend on the processing

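Of 260 combinations of gene and alternative per comparison, the direction and the call held in 240 at 3 days against control, 245 at 7 days against control and 217 at 7 against 3 days. At 7 against 3 days, 30 lost the call, 2 gained it and 11 changed sign. The cause was not tested in any case below.

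Without the trend or with only the 2 compared groups, 0 genes in place of 6 were called at 3 days, with no filter 3, with median-ratio size factors 12, with log2 Xist as a covariate 16, with voom 1, and at an adjusted p under 0.05 with any fold 41. That laxer threshold gave 5387 genes at 7 days against control (3381 before) and 5080 against 3 days (2752 before). With log2 depth as a covariate the counts were 1, 1676 and 1679 genes. In each of both 7-day comparisons 1 of the 10 genes was called, beside 11.8% of all tested genes. Scaling to the further pan-endothelial genes, chosen after seeing the data, left 0 genes at 3 days. At 7 against 3 days it left 3 of the 10, beside 15.4% of all tested genes. Scaling also moved the split of calls at 7 days against control, from 2560 higher and 821 lower to 1950 and 1253 with size factors, 1856 and 1819 with quantiles, and 1074 and 1624 with the pan-endothelial scale (median of all genes -0.25).

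The replicate numbers do not pair the livers: of 10 same-numbered pairs 2 had a correlation of deviations over 0.1 (range -0.222 to 0.269), and 2 of 11 livers correlated best with their own number. With the replicate number as a block, 3 genes were called at 3 days. At 7 against 3 days 2 of the 10 were called, beside 13.9% of all tested genes. Stab1, Clec4g and Cdh5 were lost there, and the Vwf difference was -0.037.

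Signs that turned belonged to uncalled changes. At 3 days, Stab2 was -0.071 with quantiles, -0.035 with depth and -0.061 on the pan-endothelial scale. Lyve1 was -0.051, -0.067 and -0.084 in the same order and -0.095 with voom, and Cd34 was -0.080 with depth, -0.12 with voom and -0.10 on the pan-endothelial scale. Oit3 was -0.22 at 7 days on that scale. From 3 to 7 days, Vwf was -0.15 with size factors, -0.50 with quantiles, -0.13 with Xist, -0.16 with depth and -0.37 on the pan-endothelial scale. With medians over genes, the sinusoidal minus pan-endothelial difference was 0.48 at 7 days minus control and 0.14 at 7 minus 3 days, against -0.06 and -0.29 with means.

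Leaving out each liver gave 0 to 54 genes at 3 days (54 without 3-day liver 1, and 0 without control liver 2, 3-day liver 2, 3-day liver 4 or any 7-day liver), 2054 to 3681 at 7 days against control and 1411 to 3681 against 3 days (lowest without 7-day liver 3, highest without 3-day liver 3 in both), and 1 to 5 of the 10 genes in the last. At 3 days Stab2 then ran from -0.10 to 0.22, Lyve1 from -0.16 to 0.40, Kdr from -0.074 to 0.30 and Cd34 from -0.20 to 0.23. Kdr ran from -0.29 to 0.088 at 7 days against control, and from 3 to 7 days Oit3 ran from -0.19 to 0.094 and Vwf from -0.060 to 0.087. The class difference ran from -0.16 to 0.068 at 7 days against control and from -0.38 to -0.16 against 3 days. Depth limits Cd34 and Vwf most, with 4 Cd34 reads in control liver 4.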
